A study of Mus musculus with 23 samples.

Results

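MicroRNA levels were compared between epithelial and endothelial cells of the mouse lung before birth. The samples were chosen by the age in their labels: all 7 samples of embryonic days 16.5 and 18.5 were taken, of 23 samples in the series. They comprised 4 samples labelled type II pneumocyte and sorted with CD326 (AT2), with 2 at E16.5 and 2 at E18.5, and 3 samples labelled endothelial and sorted with CD31 (EC), with 2 at E16.5 and 1 at E18.5. All came from wild-type (WT) mice of strain C57BL6, and no treatment is named. The other 16 samples, from postnatal days 1, 7, 14 and 28, were used to estimate the spread between samples and for 1 comparison with the time after birth. Cell types were compared over both embryonic stages, at E16.5 and at E18.5, and the difference between them was compared between these stages and with that after birth.

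MicroRNAs are short RNAs that guide the Argonaute proteins to messenger RNAs, most often to sites in the 3' untranslated region, and so lower their translation and stability. Type II pneumocytes make surfactant and serve as progenitors of the alveolar epithelium. They arise late in gestation from the epithelium of the distal airway tips, while endothelial cells line the vessels that grow around those tips. CD326 (EpCAM) is a surface protein of epithelial cells in general and CD31 (Pecam1) one of endothelial cells, so at these ages a CD326 sort can also hold epithelium other than type II cells. The labels use 1 name for the sorted cells at every age, and the isolation protocol they point to is one for adult mice. The deposited table gives microRNAs by their miRBase accession (MIMAT identifier) and not by name. The identifiers could not be paired with names or sequences here, so microRNAs are given by identifier only, the sorts could not be checked against marker microRNAs, and what a named microRNA does is left out.

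The panel held 602 microRNA probes, read on an nCounter instrument that counts labelled probes one by one. Apart from 14 control rows with ERCC labels, the deposited values are counts multiplied by 1 factor per sample, and are called scaled values here. Between 36373 and 258093 microRNA counts were recovered in the 7 samples, with the fewest in EC E18.5 replicate 1 and the most in AT2 E16.5 replicate 1. The background limit was the mean plus 2 SD of 8 negative control rows. These were taken as the 8 of the 14 ERCC rows with the lowest median over the samples, and were read as unscaled counts. After scaling, the limit was between 15.59 and 57.2 in the AT2 samples and between 39.2 and 95.1 in the EC samples, so the ranges overlapped. It was highest in EC E18.5 replicate 1 and next in AT2 E18.5 replicate 2. MicroRNAs above their own sample's limit numbered 172 to 246 in AT2 and 133 to 198 in EC. Whether the samples are separate animals is not in the labels. The p-values therefore rest on the spread among these samples, part of which may be technical. In a bulk sample, more cells of a type and more RNA per cell cannot be told apart. The E16.5 and E18.5 samples also carry different series of title numbers, and stage and series cannot be told apart.

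The 2 cell types divided their microRNA counts differently. In the EC samples 1 microRNA, MIMAT0000138, took 39.7% and 33.9% of the counts at E16.5 and 31.9% at E18.5. In the AT2 samples it took 0.656% and 2.65% at E16.5 and 2.62% and 3.10% at E18.5. The mean share was thus 35.1% ± 4.06 (SD, n = 3) in EC and 2.26% ± 1.09 (SD, n = 4) in AT2, and the groups did not overlap. No microRNA led all 4 AT2 samples. The one with the highest mean share there, MIMAT0003484, took 9.02% and 4.95% at E16.5 and 9.16% and 4.60% at E18.5, and 4.68% ± 0.0434 (SD, n = 3) in EC. It was at EC level in 1 AT2 sample of each stage and above it in the other.

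In AT2 the counts were spread over more microRNAs. Between 12 and 15 microRNAs made up 50% of the counts in an AT2 sample, and between 4 and 6 in an EC sample. The effective number of microRNAs, which is the number that would give the same Shannon entropy if all were equally abundant, was 71.9 ± 10.98 (SD, n = 4) in AT2 and 29.4 ± 6.66 (SD, n = 3) in EC. The 10 most abundant microRNAs of a sample held 41.9% ± 3.16 (SD, n = 4) and 63.5% ± 2.77 (SD, n = 3) of its counts. For each of these 3 measures the groups did not overlap (exact permutation test, two-sided, p = 0.0286, the smallest that 4 against 3 samples allow; 0.0476 after Benjamini-Hochberg adjustment over 5 tests). All 3 describe the same distribution of counts and are not separate results, though the adjustment counted them as separate tests. The adjusted value of 0.0476 rests on these 3 linked measures, each at the smallest p the test allows. That repeated entry lowered the adjusted value, so no conclusion was drawn from its passing the threshold. What the values show is the lack of overlap. With MIMAT0000138 left out, 50% of the remaining counts were reached with 12 to 15 microRNAs in AT2 and 11 to 12 in EC. These ranges overlapped, and the difference did not pass the test (exact permutation test, p = 0.114, adjusted 0.114). The number of microRNAs above background also overlapped, at 219 ± 32.9 (SD, n = 4) in AT2 and 167 ± 32.7 (SD, n = 3) in EC (exact permutation test, p = 0.114, adjusted 0.114).

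**Figure D1:**
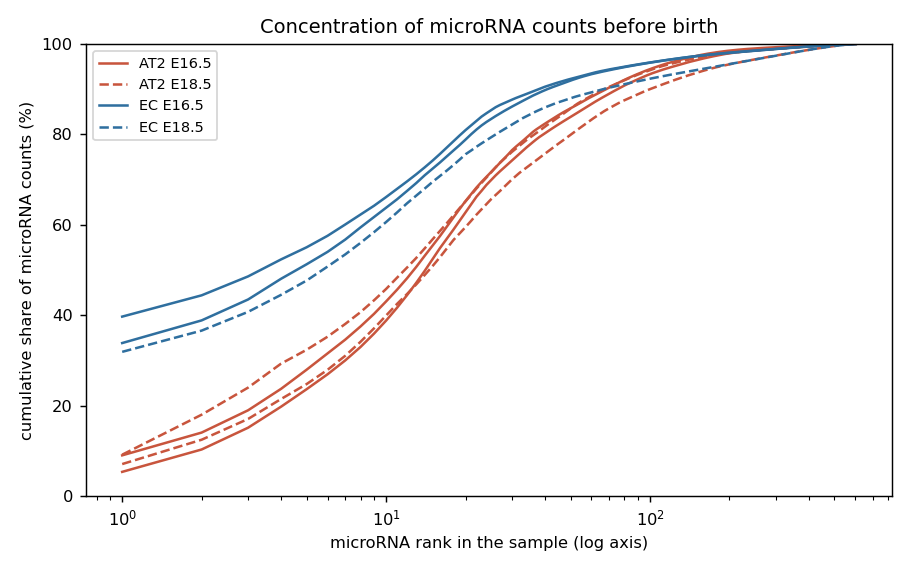
Cumulative share of the microRNA counts (percent, vertical axis) against the rank of the microRNA in its sample (log axis), with 1 line for each of the 7 embryonic samples. The 3 EC lines (blue) start at 31.9% to 39.7% and lie above the 4 AT2 lines (red) at the left of the plot.

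Over the 302 microRNAs tested, every sample was most like another of its own cell type. Pearson correlations of log2(value + 1) were 0.944 to 0.970 over 6 pairs of AT2 samples and 0.916 to 0.963 over 3 pairs of EC samples. Between an AT2 and an EC sample they were 0.705 to 0.854 over 12 pairs. Samples of both types that carry the same title number correlated at 0.820, 0.750 and 0.786, inside that range. All pairs share the panel and its probes, and these values are a description across microRNAs.

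Among microRNAs higher in AT2, MIMAT0001542 differed most by the rule used to choose names, which asks for groups that do not overlap and for a higher side above every sample's background. Its scaled value was 1991 and 1137 in the AT2 samples of E16.5 and 698 and 607 in those of E18.5. In EC it was 21.4 and 19.4 at E16.5 and 7.93 at E18.5, from 7, 7 and 1 counts. It stood above background in 4 of 4 AT2 and in 0 of 3 EC samples, and in AT2 both E16.5 samples were higher than both E18.5 samples. The log2 difference, AT2 minus EC with the stages weighted equally, was 6.16 ± 0.79 (SE; 95% interval 4.50 to 7.83; limma, adjusted p = 3.04e-05). Since EC lay in the background, the level in AT2 is better given as at least 17.5-fold higher, with each EC sample put at its background limit. With all samples raised to the highest limit of 95.1, the log2 difference was 3.37.

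MIMAT0003168 was the next. It had scaled values of 243 and 106 in the AT2 samples of E16.5 and of 294 and 129 in those of E18.5, and 1 count in each EC sample (scaled values 3.05, 2.78 and 7.93). The AT2 values of the stages overlapped. The log2 difference was 4.91 ± 0.94 (SE; 95% interval 2.94 to 6.88; limma, adjusted p = 0.000767), and with EC at its background limits the level was at least 3.12-fold higher in AT2. With every sample raised to the highest background limit the log2 difference was 0.89, with an adjusted p of 0.0159 by limma, so its size rests on how the values in the background are treated.

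Among microRNAs higher in EC, MIMAT0000138 differed most. Its scaled values in EC were 142463 and 118858 at E16.5 and 92001 at E18.5. In AT2 they were 1203 and 4185 at E16.5 and 4514 and 4686 at E18.5, so AT2 E16.5 replicate 1 was lower than the other AT2 samples. The geometric mean over samples was 36.1-fold higher in EC, and the log2 difference was -5.09 ± 0.86 (SE; 95% interval -6.90 to -3.28; limma, adjusted p = 0.000256). MIMAT0000158 followed, with scaled values of 4873, 4140 and 3710 in EC. In AT2 it had 44.8 and 208 at E16.5 and 172 and 330 at E18.5, again with AT2 E16.5 replicate 1 lowest. Its geometric mean was 27.8-fold higher in EC (log2 difference -4.74 ± 0.71, SE; 95% interval -6.24 to -3.24; limma, adjusted p = 9.78e-05). Both stood above background in all 7 samples.

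**Figure D2:**
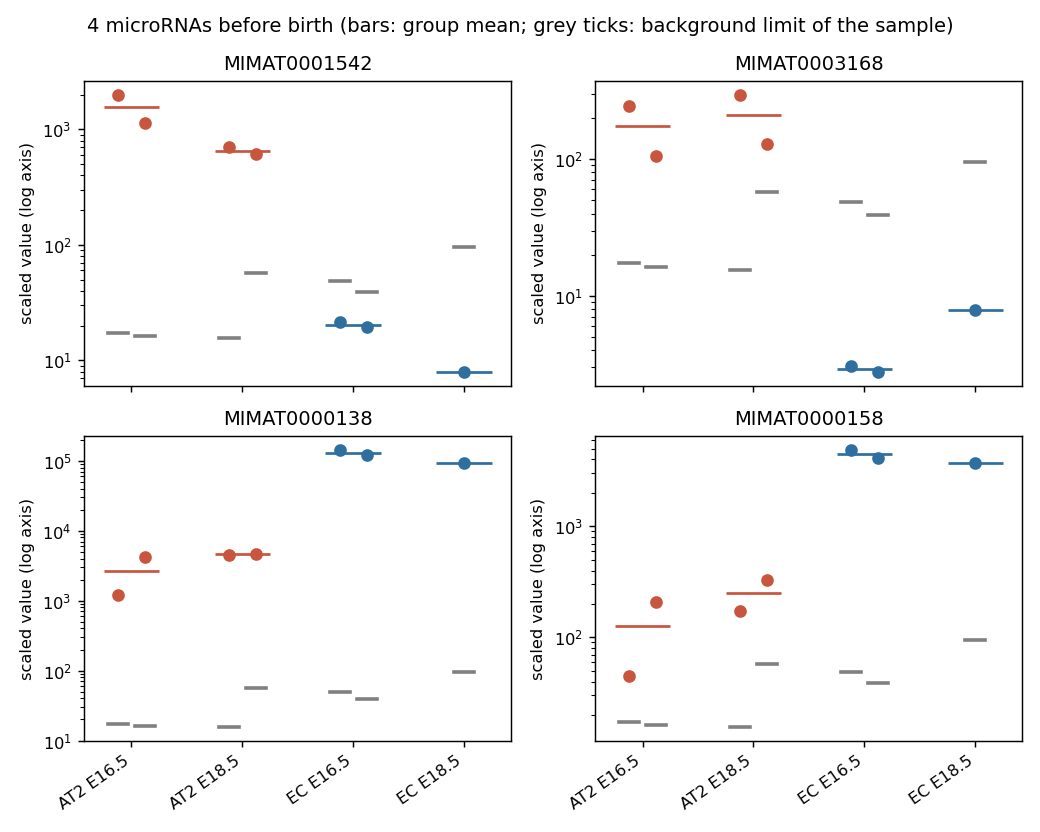
Scaled values (log axis) of the 4 microRNAs described above in each embryonic sample, AT2 in red and EC in blue, with the group mean as a bar and the sample's background limit as a grey tick. MIMAT0001542 and MIMAT0003168 lie above the limit in all AT2 samples and under it in all EC samples, and MIMAT0000138 and MIMAT0000158 lie above it in every sample.

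These 4 were the extremes of a wide difference. Of the 302 microRNAs tested, 135 (44.7%) differed between the cell types before birth at an adjusted p under 0.05 in limma. Of these, 50 (16.6% of those tested) were higher in AT2 and 85 (28.1%) in EC. The difference was 2-fold or more for 128 of the 135 and 4-fold or more for 40, of which 17 were higher in AT2 and 23 in EC. For 7 it was 16-fold or more. The values of the 4 AT2 and 3 EC samples did not overlap for 136 of the 302 (45.0%), 49 of them higher in AT2 and 87 in EC. The 135 calls included 110 of these 136. Of the 135, 133 had the same sign in each of the 3 title numbers that hold both cell types, against 221 of all 302 tested. The calls were made on the mean of these same samples, which favours a shared sign among them.

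The excess of microRNAs higher in EC lay among the low ones, and it moved with the scaling. Over all 302 the median of the log2 differences was -0.50. Ranked by mean level, the lowest 101 of the 302 held 47 calls, of which 7 were higher in AT2 and 40 in EC, with a median difference of -1.10. In the middle 100 the counts were 20 and 23 with a median of -0.36, and in the highest 101 they were 23 and 22 with a median of -0.14. The 300 probes too low to be tested had a median difference of -1.26, also towards EC. Of the 85 called higher in EC, 21 were above background in 0 of 3 EC samples and 34 in 3 of 3. Of the 50 called higher in AT2, 45 were above background in 4 of 4 AT2 samples and 0 in none of them. The larger factors of the EC samples, and background limits that were higher on average, moved with the result for low microRNAs, and their part in it was not tested.

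With other scalings the split between the cell types changed. EC was the higher side in 63.0% of the calls as scaled by the authors. A shift to equal medians gave 56 higher in AT2 and 72 in EC, and the median difference was then -0.30. With quantile normalization they numbered 63 and 56. Fitting the counts in edgeR returned 59 and 47, and taking off each sample's background 71 and 51. Scaling to the total count, where the share of MIMAT0000138 in EC counts fully, gave 74 and 17, with a median difference of 0.41. Of the 135, 0 turned their sign under the shift, quantile normalization or edgeR, 4 under background subtraction and 5 under scaling to the total count. With all values raised to the highest background limit of the 7 samples, 88 were called, 41 higher in AT2 and 47 in EC. The original 135 included 75 of these 88, and the median difference over all tested was -0.01. By that setting 48 of the 135 were level in all 7 samples, 87 kept their direction and 0 turned. None of the 4 microRNAs described above changed its direction or lost its call under any of these settings.

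**Figure D3:**
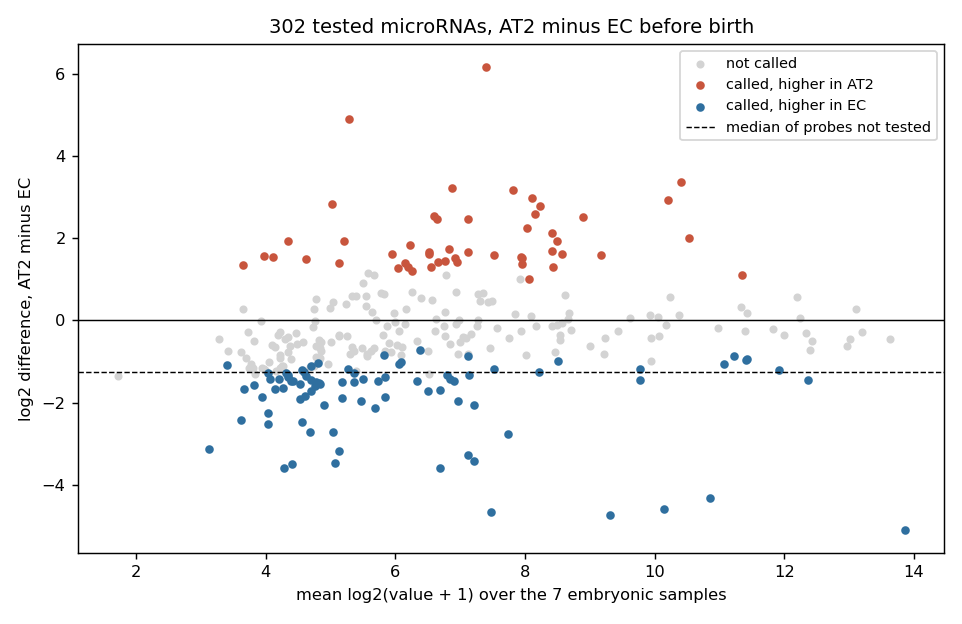
Log2 difference, AT2 minus EC before birth (vertical axis), against the mean log2(value + 1) over the 7 embryonic samples for the 302 tested microRNAs, with calls higher in AT2 in red and higher in EC in blue. At low levels most points lie below 0, near the median of the probes not tested (dashed line, -1.26), and at high levels they lie on both sides of 0.

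A count of probes that does not use the fit gave a different balance. Of all 602 probes, 116 were above background in all 7 samples and 323 in 0 of them. Another 21 were above background in 4 of 4 AT2 and 0 of 3 EC samples, and 2 in 3 of 3 EC and 0 of 4 AT2. When 1 limit was used for all samples, the highest one, these counts were 10 and 8. Few microRNAs could be bounded as alike at this number of samples. The 95% interval of the difference lay within 2-fold in either direction for 38 of the 302, and the median half-width of the interval was 0.90 on the log2 scale.

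Within a cell type, 1 sample often stood at the same end. A set of 32 microRNAs was called higher in AT2 without overlap, with all 4 AT2 values above the highest background limit. Among them EC E18.5 replicate 1 was the highest EC sample for 25, with a median deviation of 0.71 (log2) from the EC mean. This sample also had the fewest counts, the largest factor (7.93) and the highest background limit. Their part in this pattern was not tested. Another 27 were called higher in EC without overlap, with all 3 EC values above that limit. Among these AT2 E18.5 replicate 2 was the highest AT2 sample for 16 (median deviation 0.32). The lowest AT2 sample was AT2 E16.5 replicate 1 for 11 (-0.28) and AT2 E18.5 replicate 1 for 9 (-0.106), so no single sample stood at that end. The lowest EC sample of this set was EC E18.5 replicate 1 for 14 and EC E16.5 replicate 1 for 11. In the set of 32, AT2 E16.5 replicate 2 was the lowest AT2 sample for 16. Without EC E18.5 replicate 1, which leaves E16.5 alone for the comparison, 108 microRNAs were called, 49 higher in AT2 and 59 in EC.

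At E16.5, with 2 samples of each type, 108 of 302 microRNAs (35.8%) were called, 49 (16.2%) higher in AT2 and 59 (19.5%) in EC. With background subtracted the split was 57 and 34, and when scaled to the total count 66 and 13. Without AT2 E16.5 replicate 1 the count fell to 45, without EC E16.5 replicate 1 to 69, and without EC E16.5 replicate 2 to 52. At E18.5, with 2 AT2 samples and 1 EC sample whose spread is taken from the other groups, 8 (2.65%) were called, 2 (0.662%) higher in AT2 and 6 (1.99%) in EC. At an unadjusted p under 0.05 the E18.5 count was 80. Without AT2 E18.5 replicate 1 the E18.5 count was 0, without AT2 E18.5 replicate 2 it was 13, and with either EC sample of E16.5 left out alone it was 5. Of these 8, 7 were also called at E16.5, in the same direction. The E18.5 count and its split moved with the processing. A shift to equal medians gave 4 higher in AT2 and 7 in EC, quantile normalization 15 and 15, background subtraction 15 and 13, and scaling to the total count 2 and 0. With all values raised to the common limit they were 20 and 20, with no filter on low values 7 and 51, and with only the embryonic samples fitted 17 and 27.

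The 4 microRNAs above kept their direction at each stage. MIMAT0001542 differed by 6.14 ± 1.00 at E16.5 and 6.19 ± 1.23 at E18.5 (log2 ± SE; limma, adjusted p = 0.000202 and 0.0135). MIMAT0003168 differed by 5.37 ± 1.18 and 4.46 ± 1.45, MIMAT0000138 by -5.86 ± 1.09 and -4.32 ± 1.34, and MIMAT0000158 by -5.52 ± 0.90 and -3.96 ± 1.10. These 3 passed the threshold at E16.5 but not at E18.5, where the adjusted p values were 0.0745, 0.0636 and 0.0581 by limma.

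The difference between the stages was itself tested and gave 0 calls (0% in either direction) in limma. At an unadjusted p under 0.05 there were 17 of 302, and edgeR gave 0 calls and 11 unadjusted. With background subtracted there was 1 call, and with all values raised to the common limit there were 18. Of the 135 called over both stages, 134 had the same sign at E16.5 and E18.5, against 242 of all 302 tested. Since the 135 were called on the mean of both stages, a shared sign is in large part set by that choice. The 2 sets of differences share no sample, and across the 302 microRNAs they correlated at r = 0.84 (Spearman's rho 0.76), as a description across microRNAs that are not independent replicates. For the 50 called higher in AT2 the median difference was 2.20 at E16.5 and 1.41 at E18.5, and for the 85 called higher in EC it was -1.53 and -1.66. The SD of the differences over all 302 was 1.75 at E16.5 and 1.35 at E18.5.

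**Figure D4:**
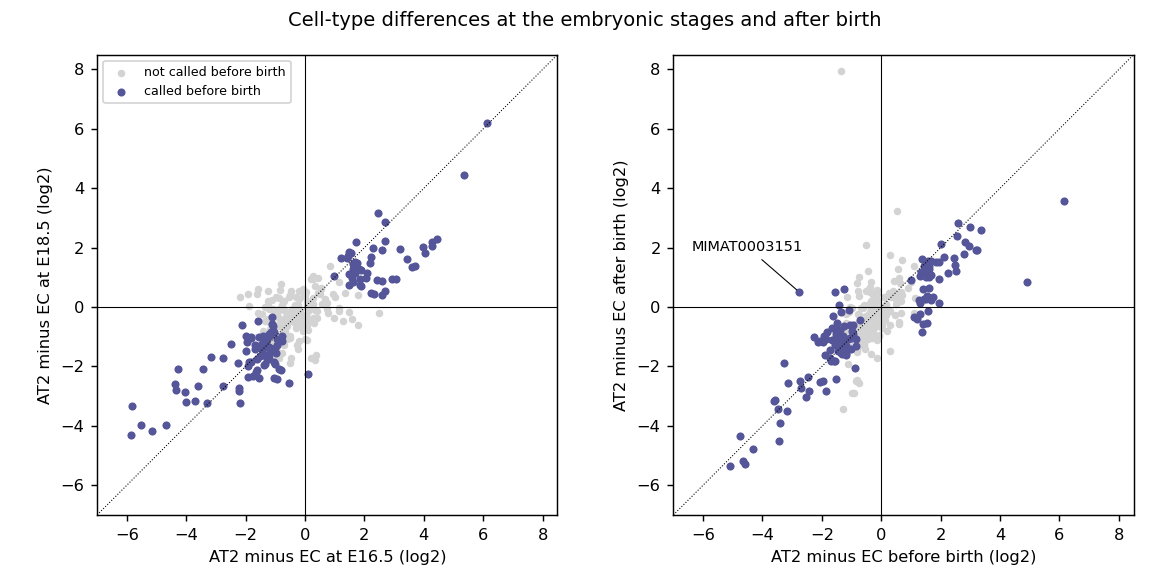
Log2 difference, AT2 minus EC, of each of the 302 tested microRNAs at E18.5 against E16.5 (left) and after against before birth (right), with those called before birth in dark blue and equality as a dotted line. Most called microRNAs lie in the lower left or upper right of both panels. MIMAT0003151 lies below 0 before birth and above 0 in the mean of the postnatal stages, though at P1 it was still higher in EC.

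After birth the direction of most cell-type differences was the same. The postnatal value averages the stages over 9 AT2 and 7 EC samples. In 3 of these 7 EC samples (replicate 1 at P1, replicate 2 at P14 and replicate 2 at P28) MIMAT0001542 had scaled values of 365, 172 and 135, against 3.86 to 28.8 in the other 4, and results are also given without them. Without those 3 no EC sample of P1 is left, so that stage then drops out of the postnatal mean. Values with P1 dropped and all other samples kept are given beside some results, to separate these changes. Of the 135 microRNAs called before birth, 124 had the same sign after birth (120 without those 3 samples, 122 without P1), 43 of the 50 higher in AT2 and 81 of the 85 higher in EC. Without those 3 samples these were 39 and 81. Over all 302 tested, 244 had the same sign (245 without those 3). Across the 302 the differences before and after birth correlated at r = 0.76 and Spearman's rho 0.76 (0.75 and 0.73 without those 3). The median of the 50 was 1.64 before and 1.16 after birth, and that of the 85 was -1.51 before and -1.29 after. Without those 3 samples the medians after birth were 1.09 and -1.75, so the median of the 85 was then farther from 0 after birth than before, and without P1 alone they were 1.15 and -1.45.

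For 5 of 302 microRNAs (1.66%) the cell-type difference before birth departed from that after birth in limma, 1 (0.331%) upwards and 4 (1.32%) downwards. At an unadjusted p under 0.05 there were 46. The count was 31 without the 3 EC samples just named, 19 when only P1 was dropped from the postnatal mean, and 9 without EC E18.5 replicate 1. It was 3 without AT2 E18.5 replicate 1, EC E16.5 replicate 1 or AT2 E16.5 replicate 1, each left out alone, and 2 without EC E16.5 replicate 2. By the rule on names, 3 of the 5 are described here.

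MIMAT0003151 was higher in EC before birth, and its cell-type difference changed after it. Its scaled value before birth was 68.3, 94.97, 90.9 and 104 in AT2 and 849, 916 and 412 in EC, without overlap. After birth it ranged from 80.0 to 434 in AT2 (median 166) and from 61.8 to 212 in EC (median 124), so the groups overlapped and the embryonic EC values lay above all postnatal EC values. The log2 difference was -2.75 before and 0.50 after birth, and the change between them was -3.25 ± 0.46 (SE; limma, adjusted p = 0.000497). Without the 3 postnatal EC samples the difference after birth was 1.38, towards AT2, and the change -4.14 ± 0.39. Without P1 alone they were 1.02 and -3.77 ± 0.48. At P1 EC was still the higher side, as before birth, with 212 against 80.0 and 129 in AT2. At P7 the AT2 values (132 and 151) lay above the EC values (124 and 90.5). The groups overlapped at P14 (360 and 166 in AT2, 61.8 and 211 in EC). At P28 AT2 was higher (349, 340 and 434, against 108 and 148).

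MIMAT0000530 had 228, 228, 173 and 168 in the AT2 samples and 571, 663 and 357 in the EC samples before birth. After birth it ranged from 389 to 5447 in AT2 and from 710 to 1846 in EC, so in both cell types every postnatal sample was higher than every embryonic one. The log2 difference went from -1.24 to 0.62, a change of -1.86 ± 0.39 (SE; limma, adjusted p = 0.0141), and without the 3 postnatal EC samples to 1.20, a change of -2.44 ± 0.37. The value after birth averages stages of opposite direction. EC was still higher at P1 (762, against 389 and 621 in AT2) and at P7 (1846 and 1564, against 1346 and 1519). AT2 was higher at P14 (1573 and 3772, against 1163 and 1114 in EC) and at P28 (4936, 5447 and 4242, against 710 and 1448). MIMAT0000151 had 284, 207, 158 and 126 in AT2 and 76.3, 72.2 and 63.4 in EC before birth. The EC value of E18.5 (63.4, from 8 counts) lay in the background. After birth MIMAT0000151 ranged from 51.8 to 190 in AT2 and from 74.03 to 235 in EC. At P1 its AT2 values of 74.2 and 190 lay on either side of the EC value of 114. The log2 difference went from 1.42 to -0.56, a change of 1.98 ± 0.45 (SE; limma, adjusted p = 0.0265), and without the 3 postnatal EC samples to -0.86, a change of 2.28 ± 0.48.

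For MIMAT0000530 and MIMAT0000151, in this order, both calls were lost in edgeR (adjusted p 0.0919 and 0.0948) and without EC E16.5 replicate 2 (0.056 and 0.0755 in limma), and when scaled to the total count (0.235 and 0.0511 in limma). That of MIMAT0000151 was also lost in limma without AT2 E18.5 replicate 1 (adjusted p 0.101), EC E16.5 replicate 1 (0.0673) or AT2 E16.5 replicate 1 (0.102), and with a shift to equal medians (0.0814). MIMAT0003151 kept its call in every alternative run.

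The 4 microRNAs with the widest difference before birth did not pass this test with all samples. MIMAT0003168 came nearest, with a change of 4.05 ± 1.12 (SE; limma, adjusted p = 0.0674). It passed without the 3 postnatal EC samples, with a change of 4.78 ± 1.27 (limma, adjusted p = 0.0251), and without P1 alone, with 4.53 ± 1.15 (limma, adjusted p = 0.026). It had 294 at most before birth in AT2, and after birth ranged from 1.00 to 42.9 in AT2 and from 1.00 to 3.86 in EC. After birth it stood above background only in AT2 P7 replicate 1 (24.2) and AT2 P1 replicate 2 (42.9), and in no EC sample. The size of its change therefore rests largely on values in the background. MIMAT0001542 had a difference of 3.58 after birth and a change of 2.58 ± 0.95 (SE; limma, adjusted p = 0.165). Without the 3 postnatal EC samples the difference after birth was 5.34 and the change 0.82 ± 0.43 (SE). Those samples were set apart by their high values of this microRNA, so a smaller change without them follows from that choice. MIMAT0000138 had a change of 0.27 ± 1.03 and MIMAT0000158 one of -0.39 ± 0.85 (adjusted p = 0.918 and 0.878).

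Probes for 4 messenger RNAs that serve as references are part of the panel, and their values were higher in EC on the deposited scale. B2m, the light chain of class I histocompatibility molecules, had 23.5 and 118 at E16.5 and 80.7 and 136 at E18.5 in AT2, and 840, 785 and 1728 in EC. Its geometric mean was 14.1-fold higher in EC, and the folds that follow are of geometric means too. Actb, a cytoskeletal actin, ranged from 1509 to 4454 in AT2 and from 10765 to 20420 in EC (4.55-fold). Rpl19, a ribosomal protein, ranged from 637 to 1513 and from 2148 to 3686 (2.52-fold), and the glycolytic enzyme Gapdh from 79.7 to 317 and from 408 to 579 (2.78-fold). None of the 4 overlapped between the cell types, and AT2 E16.5 replicate 1 was the lowest sample for all 4. By exact permutation tests of the log2 values the p was 0.0286 for B2m, Actb and Rpl19 (adjusted 0.0381 over the 4) and 0.0571 for Gapdh (adjusted 0.0571). The 4 values of a sample share its factor, so these tests are not separate, though the adjustment counted them so. The adjusted value of 0.0381 rests on 3 such linked probes at the smallest p the test allows.

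The difference in messenger RNA moved with the scale. The deposited factors are larger in EC, and relative to the microRNA counts of the sample Gapdh and Rpl19 overlapped between the cell types, with log2 differences of -0.48 and -0.34 (exact permutation tests, p = 0.514 and 0.571, both adjusted to 0.571). B2m and Actb still did not overlap on that scale, with log2 differences of -2.82 and -1.19, but no messenger RNA passed the adjusted threshold there (exact permutation tests, p = 0.0286 and 0.0571, both adjusted to 0.114).

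**Figure D5:**
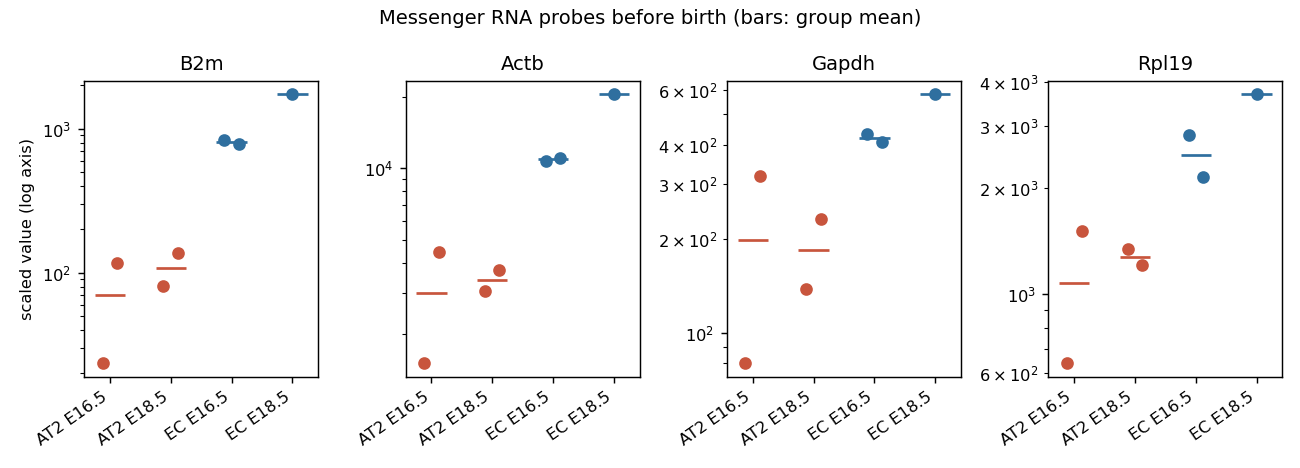
Scaled values (log axis) of the 4 messenger RNA probes in each embryonic sample, AT2 in red and EC in blue, with the group mean as a bar. For each messenger RNA all 3 EC samples lie above all 4 AT2 samples. The geometric mean over samples is 14.1-fold higher in EC for B2m and 2.52-fold for Rpl19.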

How the data were processed

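Total RNA of sorted lung cells was measured with the nCounter mouse microRNA panel (per the labels' protocols). The build mm10 is named in the submitters' processing notes. The normalization (not given in the sources used here) was read from the values. What the authors deposited is, outside the ERCC control rows, a signal made of counts times 1 factor per sample (0.711 to 7.93 before birth). Of 13861 values outside those rows, 100% came out whole within 0.1 after division by that factor. In 2 of the 7 embryonic samples values under 1 had been set to 1.

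The filter kept a microRNA when its recovered count exceeded the mean plus 2 SD of 8 negative control rows in at least 2 of the 23 samples. The test was limma 3.58.1 (R 4.3.3) on log2(value + 1), with an intensity trend, 1 mean per cell type and stage, and Benjamini-Hochberg adjustment over all 302 tested, at a threshold of 0.05. The added 1 shrinks differences of low values on that scale. Background counts multiplied by unequal factors also enter it, so differences of low microRNAs can be too small or too large. The count test, edgeR 4.0.16 on the recovered counts, was an alternative. The exact permutation tests, two-sided, were not part of the planned design. They moved the samples freely between E16.5 and E18.5 and did not use the shared title numbers.

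MicroRNAs were named by the size of the difference among calls that do not overlap and whose higher side is above the highest background limit. At most 2 in each direction are given, in place of the 12 (3 for the change after birth) first set, because 0 of 602 identifiers matched a name in the RefSeq tables. For the same reason 0 of 19 lists of microRNAs drawn up by name were tested. The messenger RNAs were named from a RefSeq gene table by accession. The samples, lists and rules were chosen with earlier results of these data known. The statistics were tested on simulated data. The alternatives tried were other scalings, filters, pseudocounts and floors, weights, a block on title numbers and samples left out.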

Additional observations from a re-analysis of the deposited data

Results flagged for a closer look

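The tested change of the cell-type difference between the time before and after birth gave 4 values for a closer look. The number of microRNAs for which the AT2 minus EC difference before birth departed from that after birth was 5 in limma. On the log2 scale the change was -3.25 for MIMAT0003151, -1.86 for MIMAT0000530 and 1.98 for MIMAT0000151. Taken over both stages, the 4 AT2 samples are the only group large enough to look for a sample far from the others, which was done for 17 measures given in the report. In 1 of them a sample stood apart: AT2 E16.5 replicate 1 had a log2(value + 1) of 10.23 for MIMAT0000138, against 12.03 to 12.19 in the other 3. The gap was 0.917 of the group's range, above Dixon's critical value of 0.829. Chance gives such a gap in about 5% of groups, and these 4 samples are of 2 stages.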

How the results depend on the processing

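With the title number as a replicate block, as a random effect (consensus correlation 0.231), 159 microRNAs were called before birth, 141 at E16.5, 35 at E18.5, 0 for the change between stages and 21 for the change after birth, and as a fixed effect over 6 samples 165 were called before birth. The title numbers were not used as pairs, since not every correlation of same-numbered deviations was over 0.1. At 4 stages 6 of 7 were 0.21 to 0.308 and 1, at P28, was -0.02. With 2 samples of each type, the 2 values at E16.5 (both 0.274) are equal by construction. The same holds for the 2 at P7 (both 0.281), so these are not separate values. Before birth the count of 135 became 310 with no filter and 88 with a common floor at the highest background limit, and 93 to 135 with 1 sample left out. At E16.5 (108) it was 166 with array quality weights, 67 with the floor, and 45 to 108 with 1 sample left out. At E18.5 (8) it was 30 with quantile normalization, 58 with no filter, 33 with a pseudocount of 10, 28 with background subtracted, 40 with the floor, 35 with array quality weights, 44 with only the 7 embryonic samples fitted, 33 without the 3 postnatal EC samples, 2 when scaled to the total count, and 0 to 13 with 1 sample left out. For the change between stages (0) it was 1 with background subtracted and 18 with the floor. For the change after birth (5) it was 9 with quantile normalization, 1 in edgeR, 17 with a pseudocount of 10, 14 with background subtracted, 47 with the floor, 19 with array quality weights, 10 with 1 mean per cell type, 31 without the 3 postnatal EC samples, 19 without P1 in the postnatal mean, 3 when scaled to the total count, and 2 to 9 with 1 sample left out. The cause was not tested. Of 162 values of named microRNAs under the alternatives, 152 kept their direction and side of the threshold, 10 fell short of it (for MIMAT0000151 and MIMAT0000530) and 0 reversed. Scaling to the total count, dropping P1 from the postnatal mean, and leaving out both E18.5 samples with the highest background (106 called before birth), were chosen after the data were seen. Background limits the low microRNAs most in EC E18.5 replicate 1, the only EC sample of its stage.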
